A study of Rattus norvegicus with 60 samples.

Results

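The cholesterol synthesis genes examined here were Acat2, Hmgcs1, Idi1, Fdps, Fdft1, Sqle, Lss and Hsd17b7, each an enzyme of the route from acetyl-CoA to cholesterol. A gene was represented by the probe set that the array's annotation ties to its symbol alone, and by the brightest of them over all 60 arrays where there were several. This gave 7 of the 8 genes, out of 14217 genes with such a probe set, since no probe set was named for Hmgcs1 in the annotation used here and that gene was not analysed. No gene of cholesterol uptake was among the 8. The 7 genes were covered by 11 probe sets.

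Liver messenger RNA came from male F344/N rats that were 5 to 6 weeks old at the start, after 5 days of daily oral gavage in corn oil. The rats received N,N-dimethyl-p-toluidine (DMPT), a curing accelerator of acrylic resins, or p-toluidine, the same aromatic amine without the methyl groups on the nitrogen. Each chemical had its own vehicle group, which received corn oil alone, and dose groups at 1, 6, 20, 60 and 120 mg/kg per day, with 5 arrays in each of the 12 groups. The labels number the arrays of a group but do not tie them to animals or to the cages of 2, so p-values reflect only the scatter among the samples, part of which may be technical. Array medians lay between 3.54 and 3.62 on the log2 scale in the DMPT set and between 2.73 and 2.81 in the p-toluidine set, so levels were read only within a chemical. As a check of the liver label, the mean log2 level of 8 hepatocyte genes lay between 11.9 and 12.2 in the DMPT arrays and between 11.6 and 12.0 in the p-toluidine arrays, so these markers were present in every array. The arrays give no count or depth, and their number limits the precision.

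Cholesterol is built in the cytosol and endoplasmic reticulum from acetyl-CoA through mevalonate, farnesyl diphosphate, squalene and lanosterol. When sterol in the endoplasmic reticulum membrane runs low, SCAP escorts the transcription factor SREBF2 to the Golgi, where the proteases MBTPS1 and MBTPS2 release its active part, while the INSIG proteins hold the complex back when sterol is plentiful. SREBF2 raises the transcription of most enzymes of the route, and it acts at promoters together with NFY, which binds CCAAT boxes. Liver is a major site of this synthesis, and its rate follows feeding, bile acid loss and time of day.

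Promoters were looked at because genes under SREBF2 and NFY share short motifs near their start. RefSeq's table of promoter windows (assembly GRCr8, 250 bases before to 50 bases after the annotated start) held 6 of the 8 genes, without Sqle and Fdft1. The letters CCAAT were found on either strand in 5 of these 6 windows (Hmgcs1, Idi1, Fdps, Lss and Hsd17b7, but not Acat2), in 8 of 10 windows of other sterol synthesis genes and in 37.5% of all 33469 windows. TCACNCCAC, the core of the classical sterol regulatory element, was found on either strand in 0 of the 6 windows, in 0 of the 10 and in 1.12% of all. With 1 mismatch allowed at a fixed letter it was found in 3 of the 6 (Acat2, Fdps and Hsd17b7), 4 of the 10 and 23.7% of all. The matches are a description of these windows. The 120 bases before the start are shown for the 4 measured genes whose window held CCAAT, in the direction of transcription, with capitals marking CCAAT or its reverse complement ATTGG.
Idi1, chr17:66547525-66547644, minus strand: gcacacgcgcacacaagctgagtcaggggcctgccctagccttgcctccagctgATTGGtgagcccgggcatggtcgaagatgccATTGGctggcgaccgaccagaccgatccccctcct
Fdps, chr2:176804817-176804936, minus strand: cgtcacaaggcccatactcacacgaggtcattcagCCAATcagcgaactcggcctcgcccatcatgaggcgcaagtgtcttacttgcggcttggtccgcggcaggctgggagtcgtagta
Lss, chr20:12118231-12118350, minus strand: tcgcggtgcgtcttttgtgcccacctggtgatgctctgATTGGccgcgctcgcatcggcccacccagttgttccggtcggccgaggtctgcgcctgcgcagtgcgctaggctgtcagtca
Hsd17b7, chr13:84722755-84722874, minus strand: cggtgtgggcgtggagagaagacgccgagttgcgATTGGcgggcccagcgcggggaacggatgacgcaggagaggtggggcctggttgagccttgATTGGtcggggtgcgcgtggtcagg
In these stretches the motif began 66 and 35 bases before the start in Idi1, 85 in Fdps, 82 in Lss, and 86 and 25 in Hsd17b7.

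Values by dose are described first, each against the vehicle group of the same chemical. A gene is said to have risen or fallen only where its probe set passed limma's moderated test with a Benjamini-Hochberg adjusted p of at most 0.05 over all 31042 probe sets. The shares of all probe sets given below take in dim ones, whereas the levels of the 7 genes lay between percentiles 86.3 and 99.1. Changes are log2 differences ± the standard error of the fit, and group means are given ± SD, with n = 5 arrays per group. After p-toluidine, the genes rose most often at 60 mg/kg: 5 of 7 rose there (Acat2, Idi1, Fdft1, Sqle and Lss), where 2.12% of all probe sets rose, and the median change of the 7 genes was 0.78 against 0.00080 over all probe sets. At 20 mg/kg, Idi1 and Acat2 rose (0.483% of all probe sets rose), and at 120 mg/kg Lss and Acat2 rose (5.68%). At 1 and 6 mg/kg 0 of 7 passed, as did 0% of all probe sets at either dose, although 3 and 2 of the genes had an unadjusted p below 0.05. After DMPT, Fdft1 rose at 60 mg/kg (1.93% of all probe sets rose), and 0 of 7 passed at 1 mg/kg (0% of all, in either direction), 6 mg/kg (0.0548% higher), 20 mg/kg (1.56% higher) or the top dose of 120 mg/kg (4.27% higher, 5.53% lower). The unadjusted p was below 0.05 for 2 of the 7 at 20 mg/kg of DMPT and for 3 at 60 mg/kg, but for 0 at the doses of 1, 6 and 120 mg/kg. After p-toluidine it was below 0.05 for 5, 7 and 5 of the 7 at 20, 60 and 120 mg/kg.

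**Figure D1:**
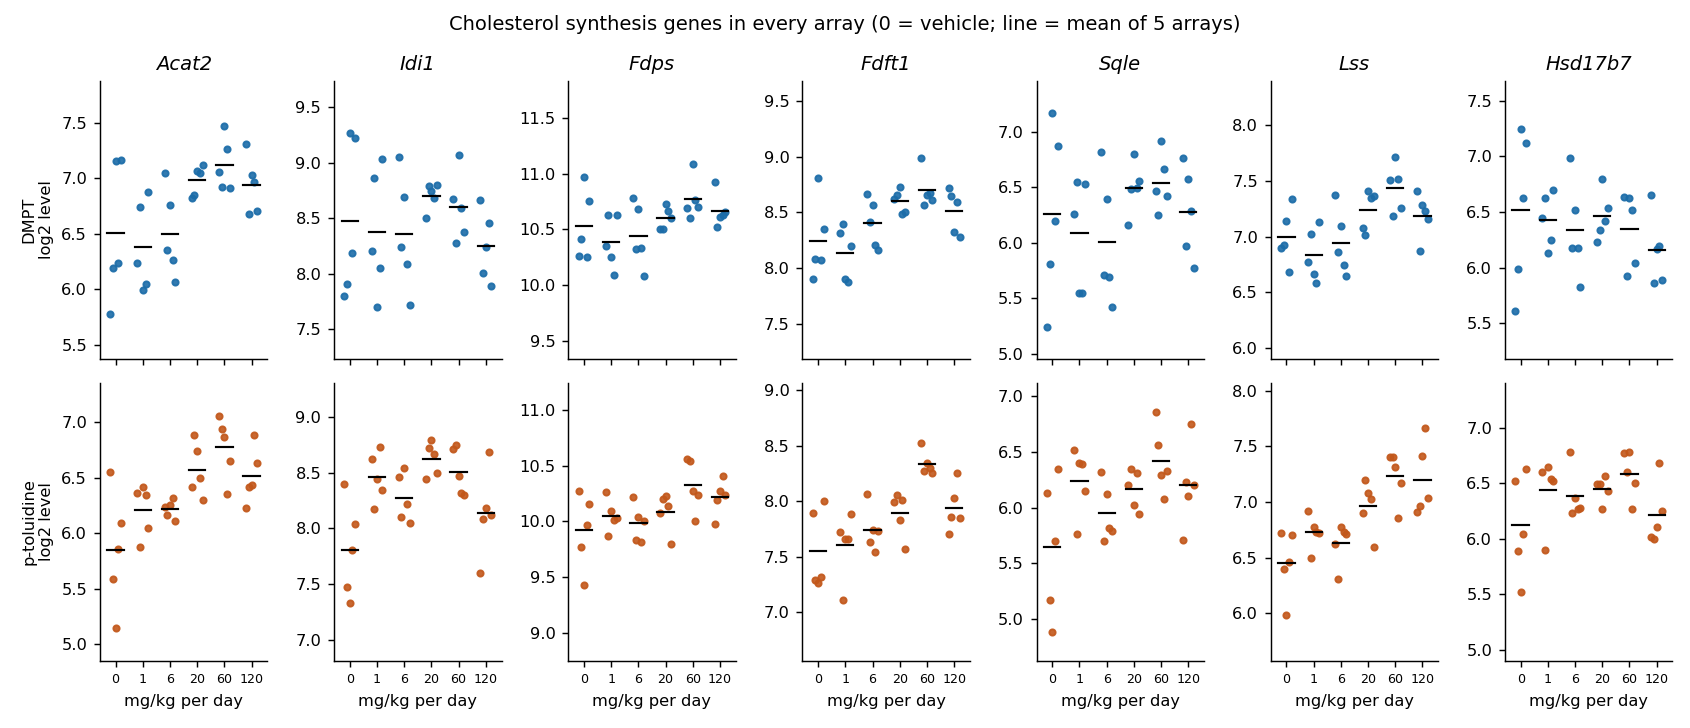
Log2 level of the 7 cholesterol synthesis genes in every array, by daily dose in mg/kg (0 is vehicle), for DMPT (top, blue) and p-toluidine (bottom, orange); each point is 1 array, each line the mean of 5, and all panels span the same range of log2 units. The p-toluidine vehicle mean is the lowest of its 6 groups for all 7 genes, and the vehicle arrays of Sqle spread from 5.24 to 7.17 in the DMPT set.

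Acat2 encodes the cytosolic thiolase that joins acetyl-CoA units in the first step of the route. In the p-toluidine set its vehicle arrays read 6.55, 5.59, 5.15, 5.86 and 6.09 on the log2 scale. The arrays at 60 mg/kg read 7.06, 6.94, 6.87, 6.35 and 6.65. All 5 dosed arrays lay above the vehicle mean, and the dimmest of them lay below the brightest vehicle array, so the groups overlapped. The change was 0.93 ± 0.17 (1.90-fold, limma adjusted p = 0.00102), and the gene rose as well at 20 mg/kg by 0.72 ± 0.17 (adjusted p = 0.0352) and at 120 mg/kg by 0.67 ± 0.17 (adjusted p = 0.00856). The call at 20 mg/kg was lost in 7 of 10 fits that each left out 1 array, namely vehicle replicate 2 (adjusted p = 0.107), 3 (0.121) or 4 (0.0816) or the 20 mg/kg replicate 1 (0.0556), 2 (0.107), 3 (0.0995) or 4 (0.0550), and with the replicate number as a block (0.0521). In the DMPT set, vehicle arrays read 5.78, 6.19, 7.16, 6.24 and 7.17, and those at 60 mg/kg read 7.05, 6.92, 7.47, 7.26 and 6.91. Of the vehicle arrays, 3 lay below every dosed array and the other 2 lay within the dosed range, and the change of 0.62 ± 0.21 had an adjusted p of 0.0943. Without vehicle replicate 3 or 5, the highest of that group, this adjusted p was 0.0298 and 0.0290.

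Idi1 encodes isopentenyl diphosphate isomerase, which interconverts the isoprene units that are joined into farnesyl diphosphate. At 20 mg/kg of p-toluidine its arrays read 8.45, 8.72, 8.80, 8.67 and 8.50. The vehicle arrays read 8.40, 7.47, 7.33, 7.80 and 8.04, all below every dosed array. Idi1 rose by 0.82 ± 0.17 (1.77-fold, adjusted p = 0.0119), the largest change of the 7 genes at that dose. It rose by 0.70 ± 0.17 at 60 mg/kg (adjusted p = 0.00958). At 120 mg/kg its mean was 8.14 ± 0.38 against 7.81 ± 0.43 in vehicle, a change of 0.33 ± 0.17 that did not pass (adjusted p = 0.247). In the DMPT set the vehicle mean was 8.48 ± 0.72 and the 60 mg/kg mean 8.60 ± 0.31, a difference of 0.12 ± 0.26 (adjusted p = 0.879).

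Fdps encodes farnesyl diphosphate synthase, whose product feeds sterols, ubiquinone and protein prenylation. In the p-toluidine set it averaged 9.92 ± 0.33 in vehicle and 10.33 ± 0.23 at 60 mg/kg, a change of 0.41 ± 0.13 with an adjusted p of 0.0577. That p was 0.0210 without vehicle replicate 1, 0.0357 without vehicle replicate 5 and 0.0274 without the 60 mg/kg replicate 4. In the DMPT set the means were 10.53 ± 0.32 and 10.77 ± 0.19, and the change of 0.24 ± 0.13 did not pass (adjusted p = 0.370).

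Fdft1 encodes squalene synthase, the first enzyme that serves sterols alone. At 60 mg/kg of p-toluidine its arrays read 8.52, 8.27, 8.34, 8.30 and 8.25, and the vehicle arrays read 7.89, 7.29, 7.26, 7.32 and 8.01. The groups did not overlap, and the change was 0.78 ± 0.14 (1.72-fold, adjusted p = 0.000781). At 60 mg/kg of DMPT the arrays read 8.99, 8.56, 8.66, 8.68 and 8.61 against 7.90, 8.08, 8.81, 8.08 and 8.35 in vehicle. Vehicle replicate 3 lay above 4 of the 5 dosed arrays. This was the single call after DMPT against vehicle, 0.46 ± 0.13 (1.37-fold, adjusted p = 0.0384), and it was lost in 7 of 10 fits that left out an array: vehicle replicate 1 (adjusted p = 0.129), 2 (0.0963) or 4 (0.111), or the 60 mg/kg replicate 1 (0.114), 3 (0.0622), 4 (0.0590) or 5 (0.0532). It was also lost without the 5 DMPT arrays of unusually narrow spread of values (adjusted p = 0.0825), 2 of which belong to the 60 mg/kg group. The second probe set of Fdft1 gave 0.35 ± 0.12 after DMPT (adjusted p = 0.107) and 0.76 ± 0.14 after p-toluidine at that dose, where it rose as well. At 120 mg/kg of p-toluidine the chosen probe set gave 0.38 ± 0.14 (adjusted p = 0.0841; 0.0386 and 0.0186 without vehicle replicate 1 or 5), and the second rose by 0.47 ± 0.14 (adjusted p = 0.0214). Without DMPT vehicle replicate 3, Fdft1 passed at 20 mg/kg (adjusted p = 0.0269, against 0.167 with it) and at 120 mg/kg (0.0306, against 0.237).

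Sqle encodes squalene epoxidase, a rate-limiting oxygen-dependent step and the target of allylamine antifungal drugs. It had the widest spread of the 7 genes among vehicle arrays: 5.24, 5.81, 7.17, 6.20 and 6.87 in the DMPT set, a 3.79-fold range, and 6.13, 5.17, 4.88, 5.70 and 6.35 in the p-toluidine set. At 60 mg/kg its arrays read 6.46, 6.25, 6.91, 6.66 and 6.42 after DMPT, inside the vehicle range. After p-toluidine they read 6.86, 6.56, 6.29, 6.07 and 6.33, of which 2 lay above every vehicle array. Sqle rose by 0.78 ± 0.21 in the latter comparison (1.71-fold, adjusted p = 0.0250), and the call was lost without vehicle replicate 2 (adjusted p = 0.0938) or 3 (0.102) or without the 60 mg/kg replicate 1 (0.0915). At 120 mg/kg of p-toluidine the change was 0.56 ± 0.21 (adjusted p = 0.0878; 0.0429 and 0.0162 without vehicle replicate 1 or 5, 0.0417 without the 120 mg/kg replicate 1). After DMPT its changes at 60 and 120 mg/kg were 0.28 ± 0.28 and 0.02 ± 0.28.

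Lss encodes lanosterol synthase, which closes the sterol rings. After p-toluidine its arrays read 7.40, 7.40, 7.32, 6.86 and 7.17 at 60 mg/kg and 6.91, 6.97, 7.41, 7.66 and 7.03 at 120 mg/kg. The vehicle arrays read 6.72, 6.40, 5.98, 6.46 and 6.70, below every array of either dose. Lss rose by 0.78 ± 0.14 (1.71-fold, adjusted p = 0.000870) and by 0.74 ± 0.14 (1.67-fold, adjusted p = 0.000508), and it stayed past the threshold in each fit without 1 array at these doses (highest adjusted p 0.00473 and 0.00314). Its second probe set rose by 0.66 ± 0.15 and 0.64 ± 0.15. At 20 mg/kg the change was 0.51 ± 0.14 (adjusted p = 0.0886; 0.0468 without the 20 mg/kg replicate 5). After 60 mg/kg of DMPT its arrays read 7.51, 7.18, 7.71, 7.51 and 7.26 against 6.90, 6.93, 7.14, 6.68 and 7.34 in vehicle, and all 5 lay above the vehicle mean. The change of 0.44 ± 0.14 just missed the threshold (adjusted p = 0.0544; 0.0248 without vehicle replicate 5, 0.0334 without the 60 mg/kg replicate 2), and the second probe set showed 0.07 ± 0.16.

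Hsd17b7 encodes the 3-ketosterol reductase that acts after lanosterol, and it also reduces estrone. It passed in 0 of the 10 comparisons with vehicle. After p-toluidine it averaged 6.12 ± 0.46 in vehicle, 6.59 ± 0.21 at 60 mg/kg (0.47 ± 0.17, adjusted p = 0.114; 0.0318 without vehicle replicate 5) and 6.21 ± 0.28 at 120 mg/kg. After DMPT its mean was highest in vehicle, at 6.52 ± 0.71, and lowest at 120 mg/kg, at 6.15 ± 0.32, a difference of −0.36 ± 0.23 (adjusted p = 0.395). Its second probe set gave 0.16 ± 0.15 at 60 mg/kg of p-toluidine and −0.50 ± 0.18 at 120 mg/kg of DMPT (adjusted p = 0.689 and 0.0877).

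**Figure D2:**
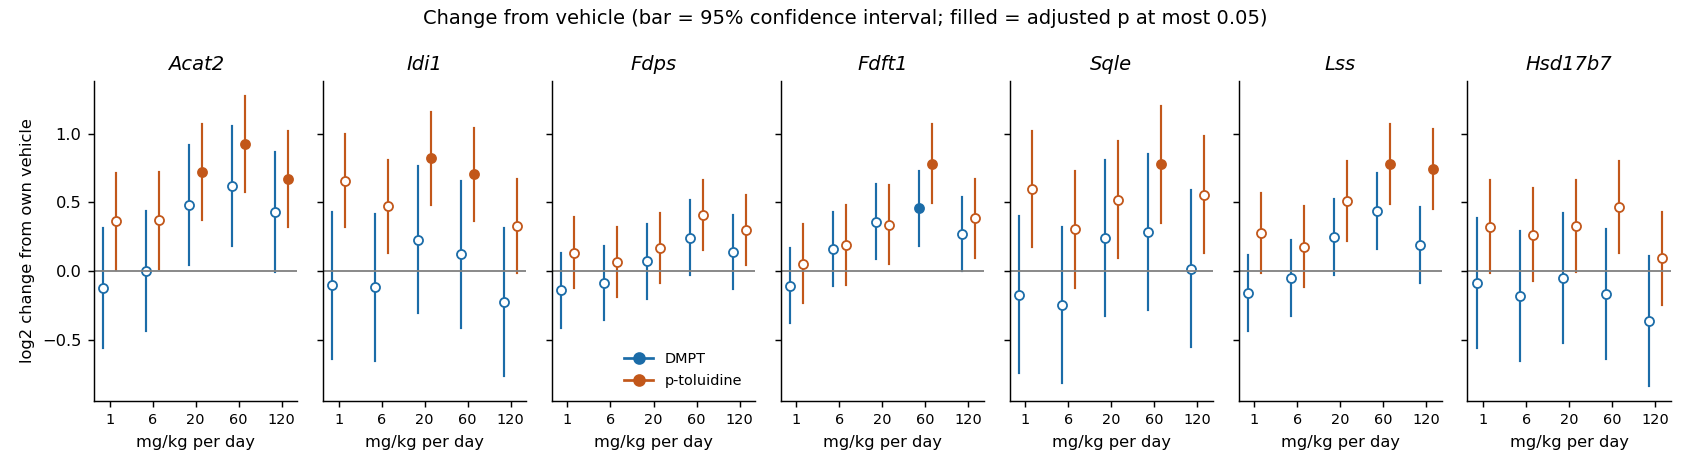
Log2 change of each gene from the vehicle group of its own chemical at daily doses of 1 to 120 mg/kg, for DMPT (blue) and p-toluidine (orange); points are limma estimates, bars their 95% confidence intervals, and filled points passed an adjusted p of 0.05. Filled points number 5 at 60 mg/kg of p-toluidine and 1, Fdft1, over all doses of DMPT, and the intervals of the chemicals overlap throughout.

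The group means did not climb steadily with dose. The highest mean was at 60 mg/kg for 6 of 7 genes after p-toluidine and for 5 of 7 after DMPT, and means at 120 mg/kg were lower. The step from 60 to 120 mg/kg was not tested. Some of its gaps were small beside the spread, as for Lss after p-toluidine (7.23 ± 0.23 and 7.20 ± 0.33). A linear trend across the dose ranks passed for 4 of 7 genes after p-toluidine, where 7.43% of all probe sets rose. Per step of dose, Lss rose by 0.16 ± 0.02 (adjusted p = 1.55e-05), Acat2 by 0.15 ± 0.03 (0.000522), Fdft1 by 0.12 ± 0.03 (0.00178) and Fdps by 0.07 ± 0.02 (0.0230). The trend of Fdps had an adjusted p of 0.0731 without vehicle replicate 3. After DMPT, where 6.30% rose, the trend passed for Fdft1 at 0.09 ± 0.02 (0.00703), Acat2 at 0.14 ± 0.04 (0.00896) and Lss at 0.09 ± 0.03 (0.0164), the last with no call in its second probe set (0.01 ± 0.03). The trend of Sqle after p-toluidine missed the threshold at 0.0685 and passed in 5 fits without a single array (vehicle replicate 5 at 0.0341, the 1 mg/kg replicates 1, 3 and 4 at 0.0397, 0.0475 and 0.0479, the 120 mg/kg replicate 1 at 0.0257). The trend of Fdps after DMPT, at 0.0936, passed without vehicle replicate 3 (0.0158) or 5 (0.0449).

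The p-toluidine vehicle group was the lowest of its 6 groups for all 7 genes, whereas the DMPT vehicle group was the lowest for 0 of 7. Vehicle replicate 3 of the p-toluidine set was the dimmest of its group for all 7 genes and the dimmest of all 30 arrays for 6. Without it, 4 of the 7 genes still passed at 60 mg/kg, where 2.12% of all probe sets rose in the fit that kept it. A second reference, the 1 mg/kg group, was added after seeing this. Against it, 2 of 7 genes rose at 60 mg/kg of p-toluidine (Fdft1 by 0.73 ± 0.14, adjusted p = 0.00223; Lss by 0.50 ± 0.14, adjusted p = 0.0417), with 2.01% of all probe sets rising. Sqle and Idi1, which had risen against vehicle, differed from the 1 mg/kg group by 0.18 ± 0.21 and 0.05 ± 0.17. Acat2, which had risen against vehicle too, differed from it by 0.56 and missed the threshold (limma adjusted p = 0.0633). Against 1 mg/kg of DMPT, 3 of 7 rose at 60 mg/kg (Acat2 by 0.74 ± 0.21, adjusted p = 0.0411; Lss by 0.60 ± 0.14, 0.00737; Fdft1 by 0.56 ± 0.13, 0.0110), with 1.67% rising. With the vehicle group left out, also an added setting, the trend passed for Acat2, Fdft1 and Lss in either chemical and for Fdps after DMPT. With the vehicle group kept, 6.30% of all probe sets rose in the DMPT trend and 7.43% in the p-toluidine trend.

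The responses to the 2 related compounds were compared at each matched dose, as DMPT minus its vehicle less p-toluidine minus its vehicle, for 7 genes at 5 doses. Of the 35 differences, 34 lay below 0, which means a smaller or more negative change after DMPT, but 0 of 35 passed (adjusted p of 0.523 or more; 5 unadjusted p below 0.05), and 0% of all probe sets passed at 1, 6, 20 and 60 mg/kg and 0.00644% at 120 mg/kg. All the doses of a chemical share its vehicle group, so the 35 signs are not independent of one another. In the order of the doses, the median difference was −0.44, −0.37, −0.26, −0.34 and −0.45. The differences of greatest size were those of Sqle at 1 mg/kg, −0.77 ± 0.37 with a 95% interval from −1.50 to −0.03, Idi1 at 1 mg/kg, −0.76 ± 0.33 with an interval from −1.42 to −0.11, and Hsd17b7 at 60 mg/kg, −0.63 ± 0.30 with an interval from −1.24 to −0.03. The lowest unadjusted p belonged to Lss at 120 mg/kg (−0.55 ± 0.20, interval −0.96 to −0.15, adjusted p = 0.523). For Fdft1 the difference was within 0.33 of 0 at every dose, with intervals between −0.73 and 0.42. No difference in these genes between the compound with methyl groups on its nitrogen and the one without passed the test, and the intervals of Sqle and Idi1 reach below −1 at every dose.

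Between single arrays of a dose group, the 7 genes moved together. The mean of each dose group was subtracted from every value, so that dose played no part, and the 30 deviations of a chemical were correlated for each of the 21 pairs of genes. Pearson's r had a median of 0.856 in the DMPT set, from 0.525 (Lss with Fdft1) to 0.965 (Idi1 with Acat2), and of 0.812 in the p-toluidine set, from 0.641 (Fdft1 with Acat2) to 0.898 (Sqle with Hsd17b7). Spearman's rho had medians of 0.861 and 0.795. All 42 correlations passed a two-sided permutation test that shuffled arrays within dose groups (100000 resamples, smallest p possible 1e-05), with Benjamini-Hochberg adjusted p over the 42 of at most 0.0106 in the DMPT set and 0.00148 in the p-toluidine set for r, and at most 0.00739 and 0.00236 for rho. Without the 2 arrays farthest from the median of the first gene of a pair, the medians of r were 0.851 and 0.752, and the lowest values 0.476 and 0.582. Without the vehicle arrays they were 0.879 and 0.750.

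Acat2, Sqle and Idi1 followed the others most closely in the DMPT set (median r with the other 6 genes 0.916, 0.905 and 0.895), and Sqle and Fdps in the p-toluidine set (0.850 and 0.834). Fdft1 followed them least in either set, at 0.740 and 0.715, and its lowest r was with Lss in one set and with Acat2 in the other. The first principal component of the deviations held 85.8% of their variance in the DMPT set and 82.3% in the p-toluidine set, and the next 7.31% and 7.15%. All 7 genes lay on the same side of their group means in 17 of 30 DMPT arrays (8 above, 9 below) and in 14 of 30 p-toluidine arrays (6 above, 8 below). At least 6 of the 7 did so in 24 and 21 arrays.

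**Figure D3:**
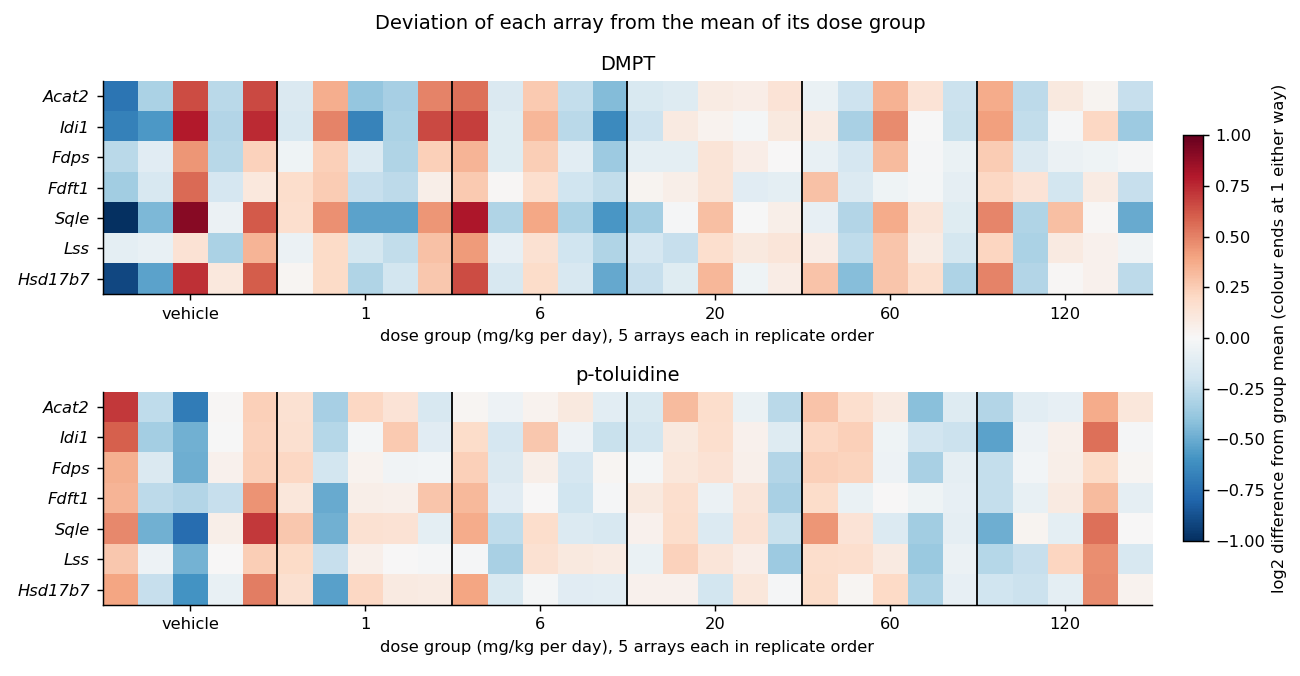
Difference of each array from the mean of its dose group in log2 units, for 7 genes (rows) and 30 arrays (columns, by daily dose in mg/kg and replicate), with DMPT above and p-toluidine below; red is above the group mean and blue below. Columns tend to hold a single colour, as in DMPT vehicle replicates 1 (all 7 genes below) and 3 (all 7 above).

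The arrays with the greatest median deviations in the DMPT set were vehicle arrays. There, vehicle replicate 1 had a median deviation of −0.67 over the 7 genes, with all 7 below the group mean, and replicates 3 and 5 had 0.65 and 0.61, with all 7 above. In the p-toluidine set, vehicle replicate 3 lay at −0.49 with all 7 below and replicate 1 at 0.40 with all 7 above. Among dosed arrays, replicate 1 at 6 mg/kg of DMPT lay at 0.55 and replicate 4 at 120 mg/kg of p-toluidine at 0.47, further from its group than the p-toluidine vehicle replicate 1. The median SD of the 7 genes within a group was 0.63 in the DMPT vehicle group and 0.43 in the p-toluidine vehicle group. In the dosed groups it lay between 0.13 (20 mg/kg) and 0.40 (6 mg/kg) for DMPT and between 0.18 and 0.28 for p-toluidine. By this median the vehicle groups had the widest spread in either set, and so they did for each gene but Lss, whose SD was larger at 6 mg/kg of DMPT (0.29 against 0.25) and at 120 mg/kg of p-toluidine (0.33 against 0.30). No test of this difference was run. Across the 30 arrays of a set, the median deviation had Pearson's r between −0.25 and 0.14 with the array's median, its interquartile range and the 3′ to 5′ differences of actin and Gapdh, the gauges of RNA quality. The actin difference itself went from 1.80 ± 0.15 in the p-toluidine vehicle group to 1.66 ± 0.23 at 60 and 1.52 ± 0.09 at 120 mg/kg, and its part in the changes by dose was not tested. The 4 genes with a second probe set showed the same deviations in it, with r from 0.822 (Lss, DMPT set) to 0.957 (Idi1, DMPT set).

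Every other gene was then ranked by its median r with the 7 genes. Of 14217 genes, the 7 themselves took ranks between 2 and 18 in the DMPT set and between 1 and 14 in the p-toluidine set, where a gene's own median runs over the other 6. The median of all other genes was −0.03 and 0.01, and the central 95% of them lay between −0.43 and 0.36 and between −0.38 and 0.40. The 6 most alike genes in the DMPT set were Cyp51 (0.921) and Msmo1 (0.891), which demethylate lanosterol and its products, Ebp (0.840), the sterol isomerase, Acss2 (0.836), which makes acetyl-CoA from acetate, Nfe2 (0.829), an erythroid transcription factor, and Mvd (0.795), the last enzyme of the mevalonate steps. In the p-toluidine set they were Msmo1 (0.850), Cyp51 (0.841), Acss2 (0.785), Mvd (0.779), Pmvk (0.764), which phosphorylates phosphomevalonate, and Erg28 (0.755), a scaffold of the sterol demethylation enzymes. Cyp51, Msmo1, Acss2 and Mvd were on both lists. These likenesses are over 30 arrays that share a normalization and carry no test, and the genes ranked include dim ones.

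Of 11 other sterol synthesis genes measured, 10 had a median r above 0.5 in the DMPT set and 9 in the p-toluidine set. The gene below in both was Ggps1 (−0.11 and −0.19), which leads from farnesyl diphosphate to geranylgeranyl diphosphate and so away from sterols. Tm7sf2, a sterol reductase, was at 0.725 and 0.474. Of the 13 uptake and regulation genes, 4 and 2 lay above 0.5, with medians over the list of 0.08 and 0.25. Srebf2, the regulator itself, was at 0.741 and 0.713. Stard4, a carrier of cholesterol between membranes, was at 0.741 in the DMPT set and 0.253 in the p-toluidine set, and Insig1, a target and brake of SREBF2, at 0.587 and 0.390. Insig2, Lrp1, a receptor for lipoprotein remnants, and Mylip, a ubiquitin ligase, lay between −0.19 and 0.02. Of 12 removal genes (bile acid synthesis, efflux and esterification) and 15 clock and feeding-phase genes, 0 lay above 0.5 in either set. Among 13 fatty acid synthesis genes, with medians over the list of 0.05 and 0.22, 2 lay above 0.5 in each set. Elovl6, a fatty acid elongase, was at 0.654 and 0.450, and Fads1 and Fads2, desaturases of polyunsaturated chains, at 0.606 and 0.537 and at 0.400 and 0.570. Scd, the stearoyl-CoA desaturase, was at −0.52 and −0.41, below the central 95% of all other genes in either set. Srebf1, the regulator of fatty acid synthesis, was at −0.45 and −0.26, below it in the DMPT set.

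**Figure D4:**
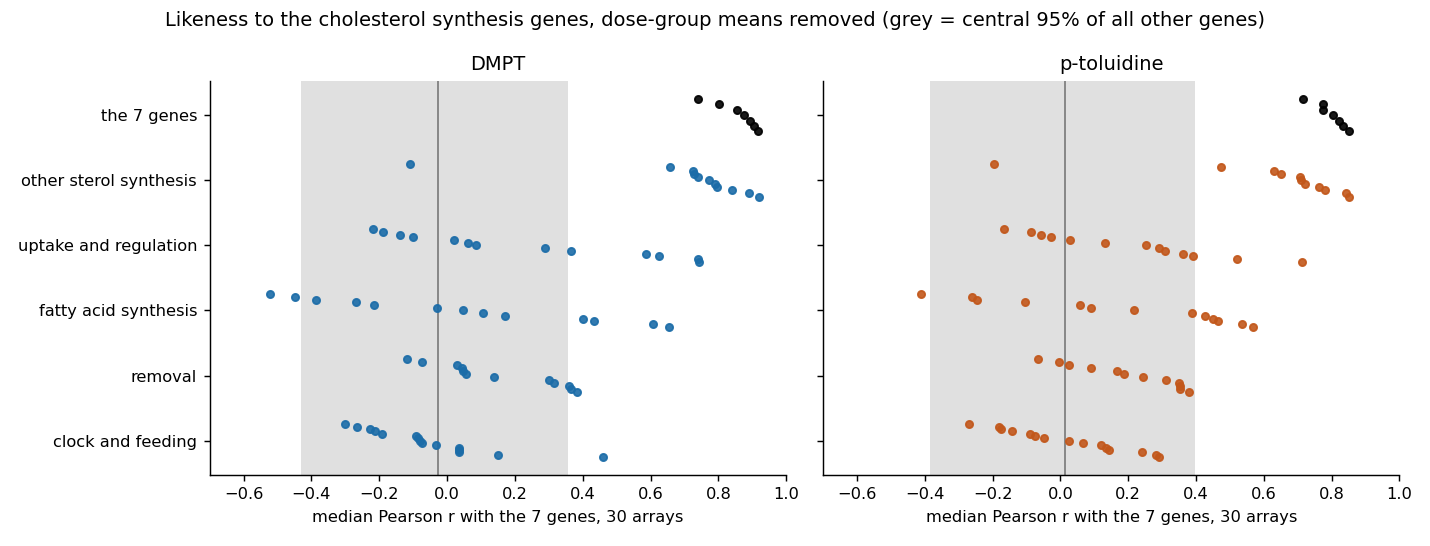
Median Pearson r with the 7 cholesterol synthesis genes over 30 arrays after removal of dose-group means, for the genes of 6 lists (rows, 1 point per gene), with DMPT on the left and p-toluidine on the right; the grey band holds the central 95% of all other genes and the grey line is their median. The 7 genes lie between 0.715 and 0.916, most other sterol synthesis genes beside them, and the removal and clock genes mostly within the band.

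The rest of the pathway was read by dose from the same fits. Of the 11 other sterol synthesis genes, 0 passed at any single dose of DMPT against vehicle. All calls after p-toluidine were rises: 2 at a dose of 20 mg/kg, 4 at 60 mg/kg and 2 at the top dose. Of all probe sets, 0.483%, 2.12% and 5.68% rose at these doses of p-toluidine. For DMPT, 0.0548%, 1.56%, 1.93% and 4.27% rose at 6, 20, 60 and 120 mg/kg. Against the 1 mg/kg group, 0 of the 11 passed at 20 mg/kg of p-toluidine. Cyp51 rose by 0.63 ± 0.13 at 20 mg/kg (adjusted p = 0.0179) and by 0.51 ± 0.13 at 60 mg/kg (0.0219), and Tm7sf2 by 0.57 ± 0.13 and 0.46 ± 0.13 (0.0261 and 0.0314). Mvk, mevalonate kinase, rose by 0.44 ± 0.12 at 60 mg/kg (0.0289) and by 0.39 ± 0.12 at 120 mg/kg (0.0331). Dhcr7, the last reductase of the route, rose by 0.46 ± 0.13 at 60 mg/kg (0.0301), and Mvd by 0.62 ± 0.19 at 120 mg/kg (0.0292). The median change of the 11 at 60 mg/kg of p-toluidine was 0.44, against 0.11 at 60 mg/kg of DMPT and 0.00 over all probe sets. In the comparison of the 2 responses at that dose, 0 of the 11 passed (lowest limma adjusted p 0.995, for Dhcr7). The trend over dose rank did pass after DMPT, but only for Mvk (0.06 ± 0.02 per step, adjusted p = 0.00833) and Mvd (0.08 ± 0.02, 0.0230). After p-toluidine it passed for Mvk (0.09 ± 0.02, 0.00274), Mvd (0.12 ± 0.03, 0.00512) and Dhcr7 (0.06 ± 0.02, 0.0416). In these trends 6.30% and 7.43% of all probe sets rose.

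Uptake and regulation genes were called mainly at the top dose, where the share of all probe sets that rose was also the highest. Of 13 measured, 0 rose and 4 fell at 120 mg/kg of DMPT, where 4.27% of all probe sets rose and 5.53% fell. At 120 mg/kg of p-toluidine 1 rose and 3 fell, where 5.68% of all probe sets rose and 5.07% fell. Lrp1 went from 8.58 ± 0.13 to 7.96 ± 0.17 after DMPT, by −0.63 ± 0.09 (adjusted p = 9.80e-06), and from 8.20 ± 0.07 to 7.48 ± 0.16 after p-toluidine, by −0.72 ± 0.08 (7.22e-08). Insig2, an isoform that insulin represses in liver, changed by −0.44 ± 0.12 (0.0151) and −0.92 ± 0.15 (7.82e-05). Scap rose after p-toluidine by 0.36 ± 0.09 (0.00607) and changed by 0.02 ± 0.06 after DMPT. The difference between these responses did not pass (−0.35 ± 0.11, adjusted p = 0.355). Scarb1, a receptor for high-density lipoprotein, and Mbtps1 fell after DMPT (−0.30 ± 0.09 and −0.27 ± 0.06, adjusted p = 0.0206 and 0.00541), and Mylip fell after p-toluidine (−0.36 ± 0.12, 0.0492). Srebf2 changed by −0.14 after DMPT (adjusted p = 0.206) and 0.05 after p-toluidine (0.856). Insig1 changed by 0.38 ± 0.29 and 0.39 ± 0.25 with adjusted p of 0.498 and 0.409. Its trend over the dose ranks of DMPT passed, however (0.18 ± 0.06 per step, limma adjusted p = 0.0345). Stard4 rose in that trend too (0.07 ± 0.02, 0.0158), where 6.30% of all probe sets rose, while Lrp1, Insig2, Scarb1 and Mbtps1 fell in it. After p-toluidine the trends of Insig1 and Stard4 did not pass (0.165 and 0.554).

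Among the removal genes at 120 mg/kg, Lcat, the plasma enzyme that esterifies cholesterol, fell in either set, with changes of −0.54 ± 0.06 (adjusted p = 4.12e-07) and −0.55 ± 0.07 (2.69e-06). Abcg8, a sterol exporter into bile, fell after DMPT (−0.79 ± 0.25, 0.0434) and changed by 0.05 ± 0.30 after p-toluidine. The difference between these responses did not pass (−0.84 ± 0.42, adjusted p = 0.749). Abca1, which loads cholesterol onto apolipoproteins, fell after p-toluidine (−0.27 ± 0.06, 0.00482). Cyp7a1, the rate-limiting enzyme of bile acid synthesis, did not pass, at 0.53 ± 0.32 and 0.56 ± 0.38. In each set 2 of 12 removal genes fell at this dose and 0 rose. These counts and those of the next lists stand beside 4.27% of all probe sets higher and 5.53% lower at 120 mg/kg of DMPT, and 5.68% higher and 5.07% lower at 120 mg/kg of p-toluidine. The fatty acid synthesis list, of 13 genes, had 2 rises and 4 falls after DMPT and 3 rises and 3 falls after p-toluidine. Scd, Pklr, the liver pyruvate kinase, and Elovl5, another elongase, fell after both chemicals at 120 mg/kg, with changes of −2.68 ± 0.56 and −2.45 ± 0.33 for Scd, and Me1, the malic enzyme, and Fads1 rose after both. Pnpla3, a lipid droplet protein, rose after p-toluidine (1.23 ± 0.27, 0.00205). Of 15 clock and feeding-phase genes, 1 rose and 2 fell after DMPT and 3 rose and 2 fell after p-toluidine. Npas2 and Bmal1, activators of the clock, fell in either set, Npas2 with changes of −1.55 ± 0.15 and −2.67 ± 0.25. Nr1d2, Dbp and Tef, which the clock drives, rose after p-toluidine, and Pdk4, a fasting-induced kinase, rose after DMPT. In the direct comparison of the chemicals at 120 mg/kg, 0 genes of these lists passed. The same held for the synthesis and the uptake and regulation lists (lowest adjusted p over all these lists 0.155, for Nr1d2).

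Markers of other liver cells are given beside the 60 mg/kg results because in bulk tissue fewer cells of a type and less RNA per cell cannot be told apart. At 60 mg/kg of p-toluidine, where 2.12% of all probe sets rose and 2.39% fell, 1 of 8 hepatocyte markers fell, with a median change of −0.01 over the 8. Of 7 stellate cell and fibroblast markers 2 fell, with a median of −0.23, and their mean lay between 4.59 and 5.30 over the p-toluidine arrays. Of 6 macrophage markers 1 rose (median −0.16, mean level between 5.70 and 6.36), and of 4 cholangiocyte markers 1 rose (median 0.02, mean level between 2.12 and 2.73). Of 4 markers each of endothelium, erythroid cells and lymphocytes 0 passed, and of 4 pancreatic markers 1 fell. The part of these shifts in the changes of the 7 genes was not tested.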

How the data were processed

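The deposited values are log2 expression values per probe set, a scale inferred from the RMA method that the submitters' processing notes name without a version, and from their range (0.0507 to 13.9). The chemicals' array sets appear to have been normalized separately. Of 31099 probe sets, 57 controls were left out and 31042 tested. The deposited platform annotation gave 1 symbol to 20826 probe sets (20758 found in RefSeq's GRCr8 table), several to 436 and none to 9780; named genes come from the first kind.

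For each chemical, limma 3.58.1 (R 4.3.3) was fitted to 30 arrays in 6 group means with eBayes and Benjamini-Hochberg adjustment, and a trend over dose rank was fitted likewise; response differences came from 60 arrays in 12 group means. The study's ORIOGEN software was not run. Correlations used scipy 1.17.1 and numpy 2.4.6. Scripts were tested on simulated data. With Hmgcs1 unnamed, 21 pairs per chemical replaced 28.

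Named genes were all members and, of each other list, up to 4 with the largest change at 120 mg/kg, all called there if 5 or fewer, and the 6 most alike genes per chemical. Other genes named at other doses, for their likeness or for further calls at 120 mg/kg (Cyp51, Tm7sf2, Ggps1, Srebf2, Stard4, Elovl6, Fads1, Fads2, Srebf1 and Me1) were chosen after their values were seen. Members and lists were chosen with earlier results of these data known. Alternatives changed normalization, filter, probe set choice, prior, arrays, block and reference group.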

Additional observations from a re-analysis of the deposited data

Results flagged for a closer look

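Of 84 groups of 5 arrays (7 genes, 12 groups), 3 held an array whose gap to the nearest of the others exceeded Dixon's limit, and chance alone gives about 1 in 20. Fdft1 read 8.99 in replicate 1 at 60 mg/kg of DMPT, and 8.56 to 8.68 in the others. Hsd17b7 read 5.90 in replicate 2 at 1 mg/kg of p-toluidine, below 6.52 to 6.65 in the others. Hsd17b7 read 6.78 in replicate 1 at 6 mg/kg of p-toluidine, above 6.23 to 6.36 in the others.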

How the results depend on the processing

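Over 2807 results of single genes under an alternative, 35 lost their call, 33 gained it and 0 reversed, and 89 changed sign while called in neither setting. The median r between the 7 genes lay between 0.773 and 0.879 (DMPT) and between 0.750 and 0.824 (p-toluidine) under the alternatives other than leaving out a replicate number, and between 0.800 and 0.873 and between 0.770 and 0.839 without each number in turn. The count at 60 mg/kg of DMPT, 1 of 7, was 2 with quantile normalization or a filter on dim probe sets, 0 with the mean of a gene's probe sets, without the arrays of unusual spread or with a fit of the 10 arrays compared, and 3 against the 1 mg/kg group, a reference added after seeing the data. For p-toluidine, the count of 2 at 20 mg/kg was 3 with the mean of a gene's probe sets, 1 with the replicate block, with an intensity trend and robust prior or with the 10 arrays compared, and 0 against 1 mg/kg; the count of 5 at 60 mg/kg was 6 with quantile normalization or the filter, 3 with the 10 arrays and 2 against 1 mg/kg; and the count of 2 at 120 mg/kg was 3 with the mean of probe sets and 1 with the 10 arrays or against 1 mg/kg. Without each array in turn, counts ranged from 0 to 1 at 20 and at 120 mg/kg of DMPT, 0 to 3 at 60 mg/kg of DMPT, and 1 to 3, 4 to 7 and 2 to 4 at 20, 60 and 120 mg/kg of p-toluidine. Genes of the other lists called were 1 at 6 mg/kg of DMPT (2 with the filter, 0 against 1 mg/kg, 1 to 3 without each array), 6 at 20 mg/kg of DMPT (2 against 1 mg/kg), 0 at 1 mg/kg of p-toluidine (0 to 1 without each array), 8 at 20 mg/kg of p-toluidine (0 against 1 mg/kg, 5 to 9 without each array) and 12 at 60 mg/kg of p-toluidine (19 with the filter, 7 to 15 without each array). Over all probe sets in the main fits, 0.0548%, 1.56%, 1.93% and 4.27% rose at 6, 20, 60 and 120 mg/kg of DMPT. For p-toluidine, 0% were called at 1 mg/kg, 0.483% rose at 20 mg/kg, and 2.12% rose and 2.39% fell at 60 mg/kg. At 120 mg/kg of p-toluidine 5.68% rose. The shares of all probe sets under each alternative are not given here. The sterol element was in 0 of 6 promoters, and in 3 with 1 mismatch. The causes were not tested.

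By the median r, arrays with the same replicate number deviated about as much alike as other pairs (0.0073 and −0.010 against −0.0025 and 0.0072). In the DMPT and p-toluidine sets, 10 and 4 of 30 arrays correlated best with their own number, and no chance level was worked out for these counts. The numbers were not taken as pairs. With a replicate block the median r between the 7 genes was 0.862 and 0.810. The precision is limited by 5 arrays per group and by the wide vehicle groups.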
